A study of Homo sapiens with 16 samples.

Results

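Compact genes are the rows of the deposited RNA-seq table that span under 3 kb from start to end and lie within no other row, on 19 autosomes and outside a left-out interval on each of chromosomes 1, 5 and 6. The rule used position only and found 1499 rows of 19333 in the table. Total RNA, depleted of ribosomal RNA, was sequenced from HEK293 cells, a line derived from human embryonic kidney, transfected repeatedly either with a negative control RNA (scramble, 2 libraries) or with siRNA against Top1 (Top1 KD, 2 libraries). The groups differed in the RNA they received and in nothing else the labels state, and the series' design text gives the samples as different passages of the cells. The 4 libraries held between 14681774 and 18366226 reads on genes. The submitters' processing notes name hg19 as the genome build, and positions are given as in the table.

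Topoisomerase I (Top1) nicks a DNA strand and lets it rotate, which releases the supercoils that build up around a moving RNA polymerase. Transcription of a longer stretch of DNA turns the helix more often, so the shortest genes form the end of the length scale at which a polymerase passes through the least DNA. Human genes of this size are known to include many with a single exon, among them receptors and structural proteins made in few tissues, and also short housekeeping genes such as those of ribosomal proteins and small mitochondrial proteins. The table lists Ensembl transcript identifiers, and 0 of 19333 were found in the tables of gene names at hand. No row is therefore assigned to any of these families. No row could be taken for TOP1 either, so its fall in the Top1 KD libraries was not measured here. The paper reports that Western blot and RNA-seq both showed the knockdown.

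Most compact genes gave no RNA that these libraries detected. Of the 1499, 898 (59.9%) had 0 reads in all 4 libraries, 246 had reads but a mean under 10 normalized counts (reads divided by the library's DESeq2 size factor), and 355 (23.7%) reached a mean of at least 10. Among the 13421 longer rows of the same chromosomes that lie within no other row, 11.05% were silent in this sense and 76.1% reached a mean of 10. A count of 0 in the 64809768 reads of all libraries allows for up to 3 reads, and this limit covers counting error only. Silence was most frequent at the short end. In rows of 0.5 to 1 kb, 86.0% of 286 were silent, and each further step of 0.5 kb brought the share down, to 69.8% (1 to 1.5 kb), 50.6%, 39.5% and finally 36.8% (2.5 to 3 kb). Below 0.5 kb it was 78.4% of 102. The series went on past the limit without a step, with 30.1% silent among the 266 rows of 3 to 3.5 kb. The median length was 1088 bp for silent and 2167 bp for expressed compact genes.

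**Figure D1:**
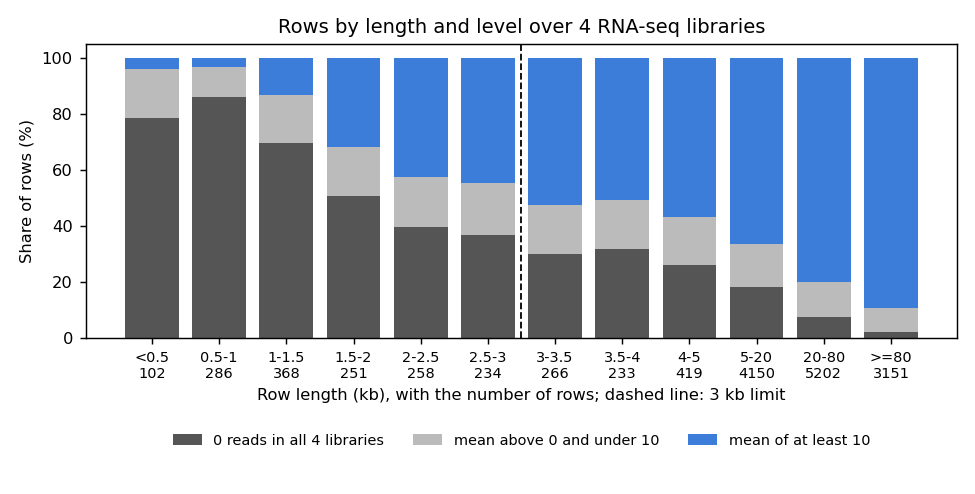
Share of rows (percent, vertical axis) by row length in kb (horizontal axis, with the number of rows under each class), split into rows with 0 reads in all 4 libraries (dark grey), a mean above 0 and under 10 normalized counts (light grey) and a mean of at least 10 (blue). The silent share falls from 86.0% at 0.5 to 1 kb to 36.8% just inside the 3 kb limit (dashed line) and 30.1% just outside it.

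How reads were assigned bears on these zeros. Each of the 299 rows under 3 kb that lie within another row on the same chromosomes had 0 reads, as had all 697 such rows of the whole table, 424 of which are on the strand opposite to their nearest row. Such rows are not among the compact genes. Another 106 compact genes overlapped a row in part, and 28 of these (26.4%) were silent, against 62.5% of the 1393 that overlapped none. Whether reads in a shared stretch were counted was not tested. Only uniquely mapped reads were kept, which also removes reads from near-identical copies. On chromosome 4, 14 compact genes had the same length of 1593 bp, and 13 of them were silent. The part of repeated sequence in their zeros was not tested.

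Part of the silent compact genes lay in long runs along the chromosomes. Runs of at least 5 consecutive rows held 359 of the 898 (40.0%). A run of at least 10 consecutive rows that were all compact and all silent occurred 14 times and took in 238 of the 898 silent members (26.5%). The longest run, 34 rows with a median length of 450.5 bp, lay on chromosome 21 (31538241 to 32410795), where 37 of 41 compact genes were silent. A run of 33 rows followed on chromosome 17 (39149686 to 39471947), with lengths from 408 to 1554 bp. The next ones also had median lengths close to 1 kb. They held 27 rows on chromosome 11 (55702932 to 56432163, median length 975 bp, range 924 to 1248), 24 rows on chromosome 1 (248308450 to 248903150, median 1011 bp, range 435 to 1110) and 15 rows on chromosome 12 (55523465 to 56031638, median 945 bp, range 930 to 1122). Chromosome 11 had the most compact genes, 241, and 177 of them (73.4%) were silent. At the other end, 40.2% of the 87 compact genes on chromosome 16 were silent and 33 reached a mean of 10. More than 50% of the compact genes were silent on 16 of the 19 chromosomes. The runs were chosen after the values were seen, and they are a description.

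Expressed compact genes had fewer reads than longer rows and more per kb. The median of the 355 was 185 normalized counts (quartiles 35.4 and 601), against 608 for the 10214 expressed longer rows. Per kb from start to end, the medians were 86.3 for compact genes and 14.3 for longer rows. This scale divides by the whole span, introns included, since no exon lengths are in the table. The shortest member with a mean of at least 100, 168 bp on chromosome 11 (120329880 to 120330047), had 192 and 98.5 normalized counts in scramble and 127 and 141 in Top1 KD cells, and the longest, 2985 bp on chromosome 1 (156262479 to 156265463), 405 and 377 against 261 and 299. Neither was called. Expressed compact genes also had close neighbours. Of these genes, 45.4% lay less than 1 kb from the nearest row, against 7.24% of silent ones and 32.3% of expressed longer rows. None of these traits was particular to rows under the length limit. The 258 expressed rows from the limit up to 4 kb had medians of 232 normalized counts and 63.7 per kb of span. Of them, 48.4% lay less than 1 kb from the nearest row. Just past the limit, rows were thus closer to compact genes than to longer rows as a whole.

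A few members carried most of the reads. The 10 with the highest mean took between 52.4% and 53.9% of the reads on compact genes, and a single row took between 17.4% and 22.3%. That row, on chromosome 17 (79476997 to 79479900, minus strand), had 82800 and 68896 normalized counts in scramble cells, while the Top1 KD libraries stood at 78987 and 92022. The groups overlap there, and its change of 0.17 on the log2 scale (standard error 0.10) had a limma adjusted p of 0.287. The next row, on chromosome 12 (56510370 to 56511727), had 38579 and 47638 in scramble and 36570 and 42340 in Top1 KD cells, again with overlapping groups. On the scale per kb of span it stood first, at 30399 normalized counts per kb against 27781 for the chromosome 17 row.

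Of the 10 most abundant members none was called (at least 1.5-fold with an adjusted p under 0.05), and 4 had an adjusted p under 0.05 with a smaller change, all of them lower in Top1 KD cells. On chromosome 17 (16284113 to 16286054) the counts were 25480 and 27769 in scramble and 15680 and 20336 in Top1 KD cells. The groups do not overlap, and the log2 fold change was -0.57 (standard error 0.11, limma adjusted p = 0.00276), just short of 1.5-fold. With 1 library left out this row ranged from -0.39 without Top1 KD replicate 1 to -0.76 without Top1 KD replicate 2. It was called without Top1 KD replicate 2 and without scramble replicate 1 (-0.64), and had a limma adjusted p of 0.0722 without scramble replicate 2. The row on chromosome 16 (2012053 to 2014861) went from 14431 and 14865 to 9191 and 11189 normalized counts, a log2 fold change of -0.53. It was called without Top1 KD replicate 2 (-0.67), and its limma adjusted p was 0.0605 without scramble replicate 2. On chromosome 8 (146015155 to 146017972) the values were 16212 and 12555 in scramble and 9512 and 11316 in Top1 KD libraries, a log2 fold change of -0.46. It was called without scramble replicate 2 (-0.64), whereas limma gave an adjusted p of 0.312 without scramble replicate 1 (-0.28) and 0.180 without Top1 KD replicate 1 (-0.33). The row on chromosome 6 (35436185 to 35438562) went from 11531 and 11833 to 8644 and 9762, a log2 fold change of -0.35, and kept an adjusted p under 0.05 only without Top1 KD replicate 2 among the fits with 1 library left out (0.113 to 0.186 in the others, by limma). In all 4 rows the lower Top1 KD value was that of replicate 1.

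The share of all reads that fell on compact genes was 2.54% (95% Wilson interval 2.53 to 2.54) and 2.45% (2.44 to 2.46) in the scramble libraries and 2.29% (2.28 to 2.30) and 2.58% (2.57 to 2.58) in the Top1 KD libraries. These intervals cover counting error only. The Top1 KD libraries lay on both sides of the scramble libraries, and the mean was 2.49% ± 0.061 (SD, n = 2) in scramble and 2.43% ± 0.20 (SD, n = 2) in Top1 KD cells (exact permutation test, two-sided, p = 1, where 0.333 is the smallest possible). Without Top1 KD replicate 1 the difference changed sign, from -0.061 to 0.082 percentage points.

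To ask which compact genes changed after Top1 depletion, limma was fitted to log2 of the normalized count plus 1 over all 13086 rows that reached 10 normalized counts in 2 or more libraries, with Benjamini-Hochberg adjustment over all of them. On this scale the change of low genes is understated. Of the compact genes 374 entered the test, 25 of them with a mean under 10, while 6 with a mean of at least 10 did not. A row that enters through only 1 of the groups has to differ, and 2 of the 374 had 0 reads in both scramble libraries and none had 0 in both Top1 KD libraries. Those 2 rows, on chromosomes 12 and 17, had between 11.6 and 16.2 normalized counts in the Top1 KD libraries and were not called (limma adjusted p = 0.196 and 0.208).

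Of the 374 tested compact genes, 27 were called (7.22%), against 8.15% of all tested rows. In Top1 KD cells 9 were higher (2.41%, against 3.88% of all tested rows) and 18 lower (4.81%, against 4.26%). Both directions together were near the background. Lower calls outnumbered higher ones among compact genes, but this was not particular to them. It also held over all tested rows (558 lower, 508 higher). The 261 tested rows from the length limit up to 4 kb had 19 lower and 5 higher. Longer rows as a whole went slightly the other way (402 lower, 420 higher). Among them, rows of 80 kb or more had 87 lower and 168 higher. Each length class from 3 to 80 kb had more lower than higher, such as 158 and 138 at 20 to 80 kb. Without a fold threshold, an adjusted p under 0.05 was reached by 39 compact genes (10.4%, against 14.8%), 13 higher and 26 lower. An unadjusted p under 0.05 was reached by 89 (23.8%, against 29.3%). Both Top1 KD libraries lay above both scramble libraries for 76 compact genes (20.3%, against 28.8%) and below both for 111 (29.7%, against 29.0%). Fits without each library in turn leave 1 group with a single library, which is assumed to vary like the other group. The share called was lower without scramble replicate 1, scramble replicate 2 or Top1 KD replicate 1 and higher without Top1 KD replicate 2. This held for compact genes and for all tested rows. All 27 kept their direction in each of the 13 other fits that gave them a value, and 7 were called in each of those fits.

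**Figure D2:**
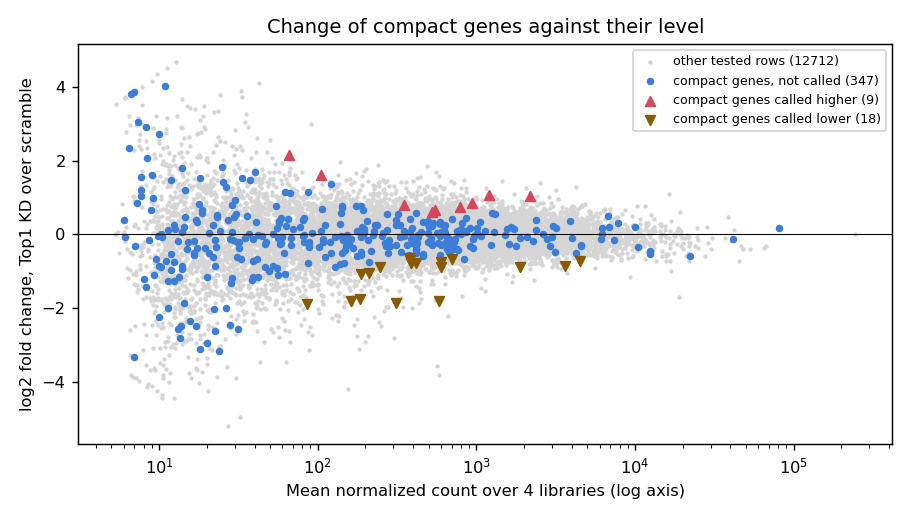
Log2 fold change of Top1 KD over scramble (vertical axis) against the mean normalized count over the 4 libraries (horizontal log axis), 1 point per tested row. Triangles mark the 9 compact genes called higher and the 18 called lower, blue points the 347 not called and grey points the other tested rows. No compact gene with a mean under 30 was called.

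Of the 9 rises, 8 had a mean of at least 100 normalized counts. ENST00000333305, on chromosome 5 (139505521 to 139508391, 2871 bp, plus strand), had 43.7 and 58.1 normalized counts in scramble cells and 183 and 134 after Top1 depletion. Each Top1 KD value was well above both scramble values, and the log2 fold change was 1.61 (standard error 0.41, limma adjusted p = 0.0144). Its call was lost without scramble replicate 1 (1.41), scramble replicate 2 (1.81) or Top1 KD replicate 1 (1.39). ENST00000435634, on chromosome 16 (70284134 to 70285833, 1700 bp, minus strand), went from 779 and 751 to 1661 and 1587 normalized counts. Replicates were close in both groups, and the log2 fold change was 1.08 (standard error 0.13, limma adjusted p = 0.000111), between 1.05 and 1.12 with any 1 library left out. The row on chromosome 14 (74178494 to 74181128) was at 1444 and 1389 in scramble and 3076 and 2809 in Top1 KD libraries, a log2 fold change of 1.05 (standard error 0.11). Another row of chromosome 14 (24605367 to 24608176) went from 649 and 703 to 1287 and 1141, a log2 fold change of 0.84, and overlaps its neighbour by its last bases. These last 3 rows were called in each fit with 1 library left out.

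The other 4 rises with a mean of at least 100 were smaller. They lay on chromosomes 2, 10, 8 and 12 with log2 fold changes of 0.81, 0.76, 0.67 and 0.62, in that order. The calls on chromosomes 2 (0.49 to 1.14) and 12 (0.59 to 0.65) were each lost in all 4 fits with 1 library left out. The call on chromosome 10 (75541821 to 75543410) was lost without scramble replicate 1 (0.81), scramble replicate 2 (0.70) and Top1 KD replicate 1 (0.62), and that on chromosome 8 (145734457 to 145736596) without scramble replicate 1 (0.81), scramble replicate 2 (0.52) and Top1 KD replicate 2 (0.45). The largest fitted rise among all 9 was that of a rarer row outside the rule for named genes, singled out after its values were seen, on chromosome 16 (56716336 to 56718108), with 40.5 and 12.3 normalized counts in scramble and 96.3 and 113 in Top1 KD libraries. Its log2 fold change was 2.17 (standard error 0.60, limma adjusted p = 0.0242), and 1.34 without scramble replicate 2, 2.28 without Top1 KD replicate 1 and 2.05 without Top1 KD replicate 2, none of which was called.

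**Figure D3:**
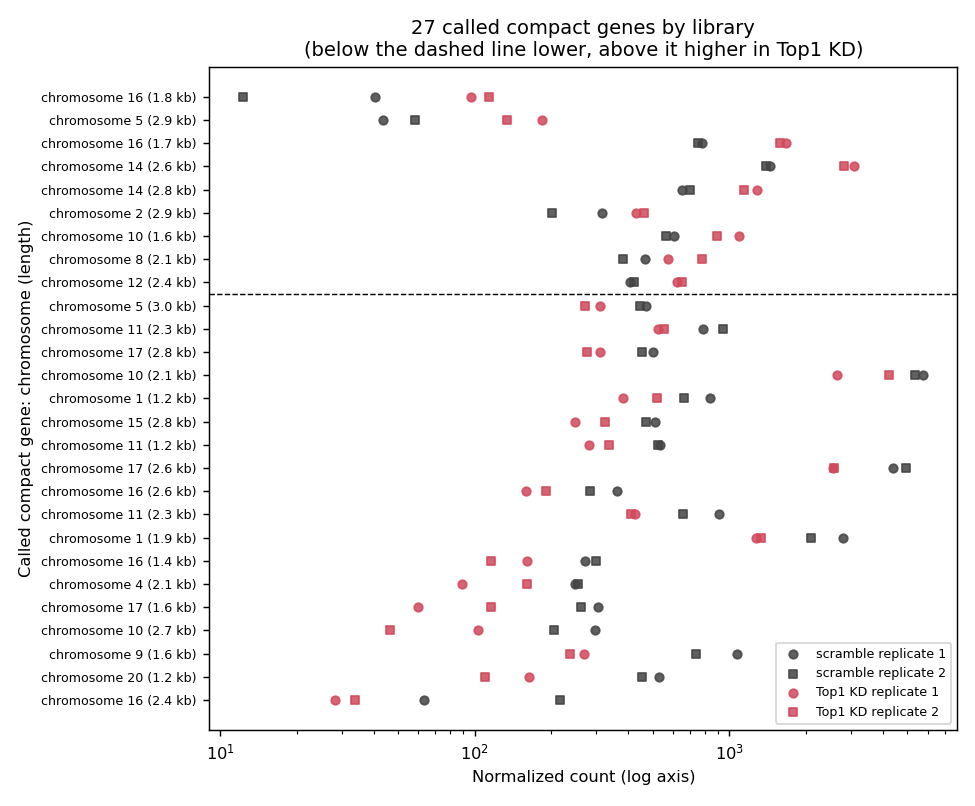
Normalized counts (horizontal log axis) of the 27 called compact genes (vertical axis, given by chromosome and length in kb) in each library: scramble in grey, Top1 KD in red, circles for replicate 1 and squares for replicate 2. The 18 below the dashed line were lower and the 9 above it higher in Top1 KD cells, and the groups overlap in none of the 27.

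Among members with a mean of at least 100, the 4 largest falls were larger in size than any rise. ENST00000376112, on chromosome 20 (30193086 to 30194318, 1233 bp, plus strand), had 529 and 453 normalized counts in scramble cells and 163 and 110 after Top1 depletion. The log2 fold change was -1.86 (standard error 0.26, limma adjusted p = 0.000348), and it was between -2.15 and -1.58 with any 1 library left out. ENST00000371620, on chromosome 9 (139886870 to 139888428, 1559 bp, plus strand), went from 1069 and 739 to 267 and 237 normalized counts. Here the scramble replicates differed more than the Top1 KD replicates, and the log2 fold change was -1.81 (standard error 0.21, limma adjusted p = 9.1e-05). Both were called in each fit with 1 library left out.

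Next came a pair of rows with wider spread. On chromosome 10 (135168795 to 135171529) the normalized counts were 297 and 204 in scramble and 103 and 46.5 in Top1 KD cells. The log2 fold change was -1.81 (standard error 0.39), with a limma adjusted p of 0.00661. The call was lost without scramble replicate 1 (-1.55) and scramble replicate 2 (-2.08). On chromosome 17 (79632066 to 79633618) the values were 304 and 262 against 59.5 and 115. Here the log2 fold change was -1.76 (standard error 0.35), with a limma adjusted p of 0.00371, and the call was lost without scramble replicate 1 (-1.65) and scramble replicate 2 (-1.86).

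Some falls with high means differed in how close their replicates were. The row on chromosome 10 (74033678 to 74035794) had 5783 and 5337 normalized counts in scramble and 2641 and 4252 in Top1 KD libraries, a log2 fold change of -0.73 (limma adjusted p = 0.00602). Its value was -0.39 without Top1 KD replicate 1, and its call was lost there, without scramble replicate 1 (-0.67), without scramble replicate 2 (-0.79) and with DESeq2. The row on chromosome 17 (79989500 to 79992078) had 4381 and 4945 normalized counts in scramble and 2550 and 2580 in Top1 KD libraries, so it changed by -0.86 on the log2 scale (standard error 0.10), at a limma adjusted p of 0.000105. On chromosome 1 (23884409 to 23886285) the values were 2790 and 2097 against 1275 and 1334, a change of -0.89 on that scale (standard error 0.14), at a limma adjusted p of 0.00065. The calls of these last rows, on chromosomes 17 and 1, held in each fit with 1 library left out. On chromosome 11 (65686728 to 65689032) the values went from 908 and 660 to 425 and 411, a log2 fold change of -0.89, and the call was lost without scramble replicate 1 (-0.66).

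The remaining 10 falls had log2 fold changes between -1.88 and -0.65. Of these, the row on chromosome 4 (3768125 to 3770251) had 248 and 254 normalized counts in scramble and 88.7 and 161 in Top1 KD libraries, and the row on chromosome 16 (1820287 to 1821731) 270 and 300.02 against 160 and 115. Each lost its call in 3 of the 4 fits with 1 library left out. The most negative value, -1.88, was again that of a rarer row, on chromosome 16 (330606 to 333003). It had 63.0 and 216 normalized counts in scramble and 28.1 and 33.9 in Top1 KD libraries, so its scramble replicates differed by more than the nearer of them did from Top1 KD cells, and the log2 fold change was -1.003 without scramble replicate 2. Its call was lost without that library and without either Top1 KD library (-1.75 and -2.01).

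No more than 5 calls fell on any chromosome. On chromosomes 17 and 11, 3 of 45 tested members each were called (6.67%, against 10.04% and 10.60% of longer rows there). These calls were all lower, and those of chromosome 17 lay between 79632066 and 79992078. Chromosome 16 had 2 higher and 3 lower among 33 tested members (15.2%, against 6.11% of longer rows there). On chromosome 14, 2 of 19 were called (10.5%, against 6.40%), all higher. On chromosome 10, 3 of 11 were called (27.3%, against 8.41%), 1 higher and 2 lower. These differences between chromosomes were not tested. No compact gene was called on chromosomes 3, 6, 13 or 21, where 21, 11, 3 and 2 were tested, in that order. None was tested on chromosome 18.

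Distance to the nearest row was compared next. Of the 110 tested members that overlapped no row and lay less than 1 kb from the nearest one, 10.9% were called, against 7.88% of longer rows at the same distance. At 1 to 5 kb the shares were 4.17% of 72 compact genes and 6.93% of longer rows, at 5 to 20 kb they were 5.80% and 8.54%, and at 20 kb or more 6.06% of 66 and 8.24%. Of the 57 tested members that overlapped a row, 7.02% were called. The differences between these classes were not tested.

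For 302 compact genes the nearest row was tested too, and its log2 fold change had the same sign in 152 pairs (50.3%). Over all of these pairs Pearson's r was 0.067 and Spearman's rho 0.086, and over the 180 with a member mean of at least 100 they were 0.21 and 0.14 (49.4% with the same sign), a description across genes that share libraries. In 24 of the 302 pairs the nearest row was called. Of the 21 called members with a tested nearest row, 2 had a neighbour called in the same direction and 1 in the opposite direction. The opposite pair was that of the rise on chromosome 16 (70284134 to 70285833). Its nearest row (70286198 to 70323446), 365 bp away on the same strand, fell from 4244 and 3810 to 2168 and 2445 normalized counts, a log2 fold change of -0.80. The first of the pairs in the same direction was the fall on chromosome 17 (79632066 to 79633618), which overlaps a row on the other strand (79633394 to 79640929) that went from 555 and 459 to 273 and 294 normalized counts. In the other pair, the fall on chromosome 1 (23884409 to 23886285) stood 26697 bp from a row that went from 1464 and 1075 to 662 and 721 normalized counts, a log2 fold change of -0.86.

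Across all 374, compact genes were slightly lower in Top1 KD cells, with a median log2 fold change of -0.085 against 0.0025 over all tested rows and 0.015 over the longer rows. A negative value was found for 217 of them (58.0%). The middle 90% lay between -1.83 and 1.44, wider than the -1.01 to 0.85 of longer rows, which had higher counts. At like levels the ranges were closer. For a mean of 300 to 1000 they were -0.75 to 0.58 for compact genes and -0.64 to 0.70 for longer rows. The library pairs did not give the same median. Top1 KD replicate 1 was at -0.20 and -0.10 against the scramble replicates, and Top1 KD replicate 2 at -0.045 and 0.026. Directly between the Top1 KD libraries, replicate 1 was below replicate 2 for 229 compact genes (61.2%), with a median log2 difference of -0.16, whereas the median of longer rows was 0.0070. The scramble libraries differed too, by a median of 0.092 for replicate 1 over replicate 2, against 0.0036 for longer rows. In each group the difference between replicates was therefore larger in size than the median change between the groups. Without Top1 KD replicate 1 the median change was -0.014, and without scramble replicate 1 it was -0.042. The part of these replicate differences in the result was not tested.

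Length classes gave similar values. The median was -0.11 for the 56 tested rows of 1 to 1.5 kb, -0.096 at 1.5 to 2 kb, -0.12 at 2 to 2.5 kb and -0.068 at 2.5 to 3 kb, and it was -0.073 for the 261 rows of 3 to 4 kb beyond the limit. In these classes from 1 to 3 kb, the median log2 difference of Top1 KD replicate 1 from replicate 2 lay between -0.21 and -0.13. Under 1 kb just 17 rows were tested, with a median of 0.24, none of them called. Of the 213 tested members with a mean of at least 100, 174 (81.7%) changed by less than 1.5-fold, against 85.8% of all tested rows at that level.

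**Figure D4:**
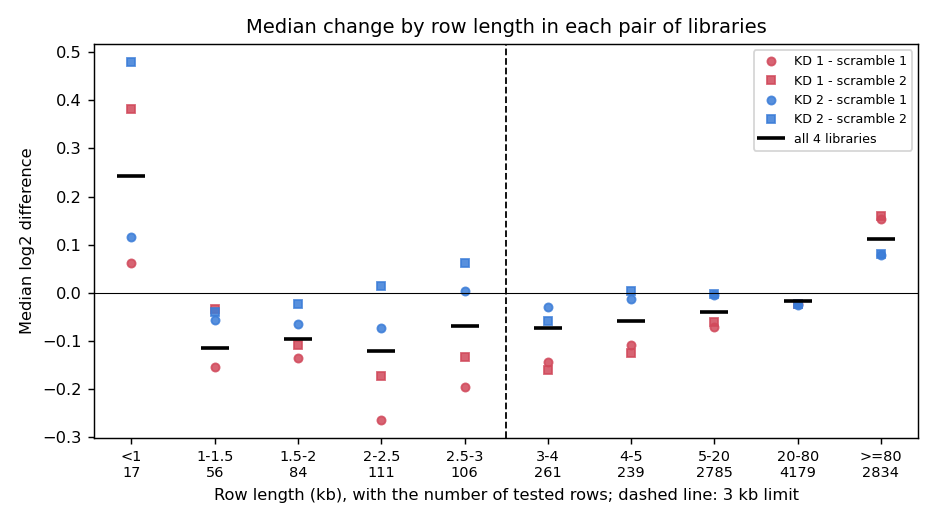
Median log2 difference of Top1 KD over scramble (vertical axis) by row length in kb (horizontal axis, with the number of tested rows), for each pair of libraries (points) and for all 4 libraries (black bars). From 1 to 3 kb the Top1 KD replicate 1 pairs (red) average below the Top1 KD replicate 2 pairs (blue), and the bars lie between -0.12 and -0.068.

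Replicates of compact genes differed more than those of longer rows. The median size of the log2 difference between replicates was 0.27 in scramble and 0.41 in Top1 KD cells for tested compact genes, against 0.16 and 0.21 for longer rows, and the median standard error was 0.33 against 0.18. Tested compact genes also held more rare rows. Among rows with a mean of 300 to 1000, the medians were 0.17 and 0.21 for 97 compact genes and 0.16 and 0.20 for longer rows. Above 1000, 51 compact genes had 0.14 and 0.21, against 0.099 and 0.13 for longer rows. At a mean of 300 to 1000, 14.4% of the compact genes were called against 12.9% of the longer rows, and above 1000 9.80% against 6.10%. In the rarer classes fewer compact genes than longer rows were called, 9.23% against 9.76% at 100 to 300, 3.17% against 4.42% at 30 to 100 and none of 73 against 0.255% at 10 to 30. These differences were not tested. In the lowest class the test made 0 calls for compact genes, and the spread between replicates there (0.88 in scramble and 1.24 in Top1 KD cells) was above the 1.5-fold threshold.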

How the data were processed

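RNA-seq libraries of scramble (2) and Top1 KD (2) HEK293 cells were analysed, and the 12 other samples (R-loop mapping and polymerase ChIP) were not analysed here. Single-end reads had been trimmed by the authors (fastq-mcf) and aligned with Tophat2, unique hits being kept, and the submitters' processing notes name TopHat2 2.0.5, HTSeq, DESeq2 and hg19. The values the authors deposited are a signal, the read count of a row over the size factor of its library, with no scaling for length. Within 0.05 of a read, 100% of values were whole multiples, so reads were recovered by rounding (15258182 and 18366226 in scramble, 14681774 and 16503586 in Top1 KD libraries), and 0 value columns lacked a sample. The table also holds the authors' own DESeq2 comparison, which was not used. The design named limma on normalized counts. It was run as limma 3.58.1 (R 4.3.3, trend) and tested on simulated data, with edgeR 4.0.16 and DESeq2 1.42.0 on recovered reads as alternatives, next to other scalings, filters, pseudocounts, length limits and left-out libraries. Leaving out partly overlapping rows was added after the data were seen.

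The rule for named genes took called members with a mean of at least 100 and groups that do not overlap (the 10 largest rises and falls), the 10 most abundant, in total and per kb, and the shortest and longest. At most 2 risers and 2 fallers are given by identifier and the rest by position. Gene lists planned by symbol could not be used. Members and tests were chosen with earlier results of these data known. With 2 libraries a group, p-values rest on the spread between these passages. In limma with a trend, the variance of each row is also drawn toward that of rows at a like level. A standard error given here is therefore not the replicate spread of that row alone. Same-numbered libraries were not treated as pairs. The correlation of their deviations was -0.010, a value that cannot tell how the libraries were prepared. No sequence is shown, because no table used here pairs these identifiers with one.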

Additional observations from a re-analysis of the deposited data

How the results depend on the processing

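The number of called compact genes (27, 9 higher and 18 lower) was between 25 and 31 with library-size scaling, DESeq2 or edgeR on recovered reads, pseudocounts of 0.1 and 5, other filters on low values and the replicate block, which gave 28 calls (27 of them the same genes). Without partly overlapping rows 23 were called, and without a fold threshold 39. A fold threshold of 2 left 11 (4 higher, 7 lower). A length limit of 2 kb gave 10 (3 and 7) and one of 4 kb 51 (14 and 37). All nuclear chromosomes and regions gave 41, of which 30 were lower. These settings shift the total by construction, but not the split by direction. With each library left out in turn (leave-one-out), calls ranged from 9 to 37, higher from 3 to 8 and lower from 6 to 29. Of the 27, 21 stayed called under the 9 alternatives with all libraries. The exceptions were lost without a filter, by DESeq2, or through the mean of 100.

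The median log2 fold change stayed negative, from -0.14 to -0.014 with a replicate left out and from -0.12 to -0.044 otherwise. The silent share of 59.9% (95% Wilson interval 57.4 to 62.4) was 70.5% under 2 kb, 52.7% under 4 kb, 66.6% with rows within another row kept, 56.4% on all nuclear chromosomes, 62.5% without overlapping rows and 76.3% when a mean under 10 counts as silent. The difference in the share of reads reversed, to 0.082 percentage points, without Top1 KD replicate 1, and ranged from -0.20 to 0.082 over the replicates left out. The cause was not tested.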
